A study of Rattus norvegicus with 24 samples.

Results

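The genes described here encode the proteins of the cytosolic ribosome, measured by RNA-seq in cultured neonatal rat ventricular myocytes from Sprague-Dawley rats. Members were the rows whose symbol has the standard form for a ribosomal protein of the large subunit (Rpl), the small subunit (Rps) or the acidic stalk (Rplp), leaving out pseudogenes, unnamed loci and S6 kinases, with a mean CPM (counts scaled to a common library total) of at least 1 over the 24 libraries. Of 21767 symbols, 82 had such a form and 74 passed the minimum: 41 of the large subunit, 30 of the small subunit and 3 of the stalk. The 8 that did not pass were Rpl30l1, Rpl35a, Rpl39l, Rpl3l, Rpl8, Rplp0l1, Rps18l1 and Rps29. Rpl8, Rpl35a and Rps29, which are main forms by symbol, had a mean CPM of 0.217, 0.0640 and 0.0684. Whether such low values reflect expression or the assignment of reads to genes was not tested. Just inside the minimum lay Rps20 with a mean CPM of 3.47 and Rpl13 with 6.34, and just outside lay Rpl39l with 0.580 and Rps18l1 with 0.225. All 74 members were among the 14303 genes tested.

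All groups came from myocytes transfected by Lipofectamine RNAiMax with a control mimic, miR-222-3p, miR-455-3p, or both microRNA mimics together. Each mimic is listed at 5 nM, also where both were given, so by that listing total mimic was not matched across groups. Each of these 4 transfections was either left without doxorubicin or given it from 48 h after transfection for 24 h, which makes 8 groups of 3 libraries. Doxorubicin is an anthracycline that damages DNA and is toxic to heart muscle; its dose is 4 uM in the sample protocols and 4 mM in the series text, so it is not settled here. The labels do not say whether the 3 libraries of a group came from separate animals or culture days, so each p-value reflects the spread among the libraries at hand, which may be technical.

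Ribosomal proteins are built in matching amounts and join ribosomal RNA in the nucleolus to make a small subunit, which reads the message, and a large subunit, which joins the amino acids. Their messages begin with a run of pyrimidines, the 5′ terminal oligopyrimidine (TOP) tract, through which LARP1 and the kinase complex mTORC1 control their translation and stability. Several free ribosomal proteins bind MDM2, the ligase that degrades p53, when ribosome assembly is disturbed.

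To show the tract, 30 bases around the annotated start are printed for members to which the results return, from 10 bases before the start, as RefSeq gives them on build GRCr8. Capitals mark a C within 5 bases of the start followed by at least 4 pyrimidines, on the strand of the gene.
Rplp0, chr12:46718371-46718400, minus strand: caccgcaCTTCTCTCgccaggcgtcctcat
Rplp1, chr8:71290853-71290882, minus strand: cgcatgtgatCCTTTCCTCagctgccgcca
Rpl37a, chr9:81748081-81748110, plus strand: cccgttgcgtCTCTTCCTCTTCgggcttgg
Rpl31, chr9:49143101-49143130, plus strand: atccctcgcgCCTTTCCTTTCCaacttggg
Rps7, chr6:50999426-50999455, minus strand: agagctgtgtCTCTTTCTaagccggcactc
Rps24, chr16:96507-96536, plus strand: ggtcctCTTTTCCTCCTTTacagctcgggc
Rps27, chr2:177964587-177964616, minus strand: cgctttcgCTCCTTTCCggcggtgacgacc
The next 5 members had no such tract in this window, and are shown because they are minor forms or were called in a comparison of mimics.
Rps12, chr1:23500065-23500094, plus strand: gaagcccagcagagcgcttaaataccgtca
Rps15a, chr1:181860265-181860294, minus strand: ttttctttccacagtcaccatggtgcgaat
Rps27l, chr8:76443648-76443677, plus strand: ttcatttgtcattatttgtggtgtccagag
Rpl7l1, chr9:21695708-21695737, plus strand: cagatgcattgtgggaagcctttaactcgt
Rpl22l1, chr2:113683186-113683215, plus strand: gtggatatccggttccgagttgcgcagcgc
Of the 58 members with a RefSeq entry, 35 held the tract (60.3%), against 5205 of 27457 genes in the same table (19.0%). The other 16 members had no matching entry.

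The microRNAs whose mimics were used are shown with their seed, bases 2 to 8, in capitals. They are RefSeq's rat sequences, and the labels do not give the sequence of the mimics themselves.
rno-miR-222-3p: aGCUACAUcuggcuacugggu
rno-miR-455-3p: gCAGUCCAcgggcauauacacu

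Libraries held 17311955 to 25750311 counts and 11469 to 13524 genes with at least 10 counts. The cardiomyocyte markers Tnnt2 (3291 to 7999 CPM) and Myh6 (4739 to 16483 CPM) were high in every library, and so was the fibroblast collagen Col1a1 (8501 to 31704 CPM). Of the macrophage and leukocyte genes, Ptprc had at most 0.978 CPM, Cd68 2.53 and Lyz2 8.45. Cd14 had the most, with 1.78 to 11.6 CPM. Because these are bulk libraries, fewer cells of a type and less RNA per cell cannot be told apart. Protein-coding transcripts of the mitochondrial genome took between 5.54% and 38.2% of the counts. In 6 libraries the ratio of Rplp0 to Rps24 CPM was between 0.345 and 1.49, against 3.32 to 4.12 in the other 18. These 6 were control mimic replicates 1 and 2, control mimic with doxorubicin replicate 1, both mimics replicate 3, and both mimics with doxorubicin replicates 2 and 3. Mitochondrial transcripts took 13.5% to 38.2% of their counts, against 5.54% to 16.0% in the other 18. Where leaving out these 6 leaves 1 library in a group compared, no count of called members is given for that fit.

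The summed share of the 74 genes in a library was higher with doxorubicin than without it for each mimic, and the groups overlapped only where both mimics were given. With the control mimic the share was 2.85%, 3.25% and 3.26% without doxorubicin and 5.09%, 6.05% and 6.62% with it. With miR-222 it was 4.55%, 4.54% and 4.29%, and 6.56%, 6.73% and 7.56% with doxorubicin. With miR-455 it was 4.73%, 3.66% and 4.75%, and 6.35%, 6.66% and 6.59% with doxorubicin. Among the doxorubicin groups, miR-455 had the lowest SD, at 6.53% ± 0.162 (SD, n = 3). With both mimics the share was 4.65%, 4.90% and 3.19%, and 6.63%, 4.88% and 6.44% with doxorubicin. In this last pair the groups came closest, and doxorubicin replicate 2, at 4.88%, lay below the highest library without doxorubicin, at 4.90%. The mean share with doxorubicin over that without was 1.90 for the control mimic, 1.56 for miR-222, 1.49 for miR-455 and 1.41 for both. Counted without mitochondrial transcripts, the control mimic had the highest ratio, 2.08, and both mimics the lowest.

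**Figure D1:**
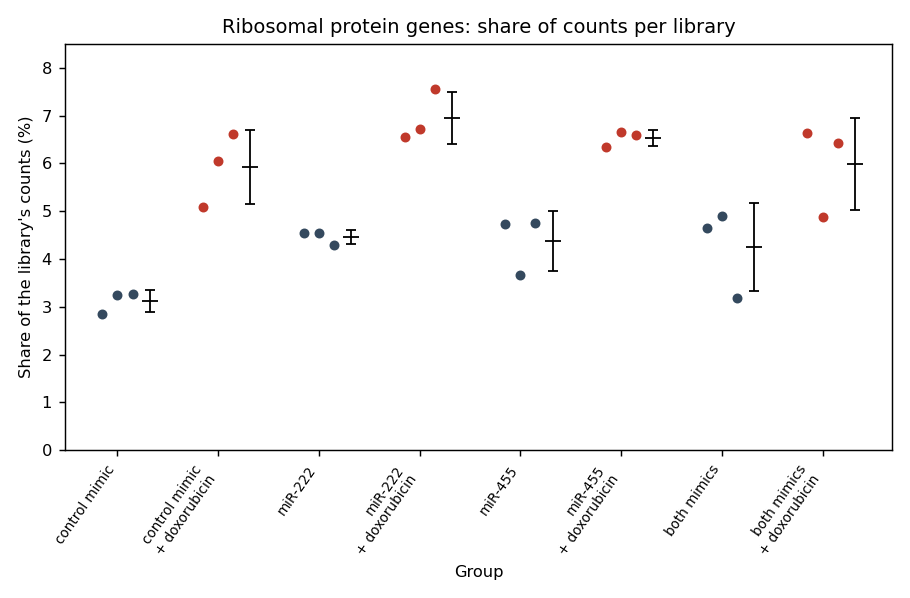
Share of each library's counts taken by the 74 ribosomal protein genes (y axis, percent), by group (x axis). Points are libraries (red with doxorubicin), and the black dash with its bar is the mean ± SD of 3. The control mimic libraries without doxorubicin are the lowest, at 2.85% to 3.26%.

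With the control mimic, doxorubicin raised 63 of the 74 members and lowered none, where 27.5% of all genes tested were called. A gene is called at an adjusted p under 0.05 in edgeR's quasi-likelihood test with Benjamini-Hochberg adjustment over all genes. Of all genes tested, 15.2% were called higher and 12.3% lower. Taking an unadjusted p under 0.05, 65 members were higher and 0 lower. For counts at an unadjusted p, and for DESeq2 counts below, no share of all genes is given. Such counts therefore cannot be set against all genes here. The median log2 fold change of the members was 1.66, a 3.16-fold rise, beside 0.02 over all genes. Log2 fold changes rest on edgeR's TMM scaling of the libraries, while the mean share, without that scaling, rose 1.90-fold. The scaling factors were 1.11, 1.30 and 1.16 without doxorubicin and 0.572, 0.847 and 0.781 with it. The size of the rise therefore depends on the scaling. In 61 members the 3 doxorubicin libraries all lay above the 3 without, which held for 16.3% of all genes; the reverse held for 0 members and 17.3% of all genes. Leaving out the 6 libraries with the low ratio leaves 1 control mimic library without doxorubicin, so no count of members is given for that fit.

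Of the small subunit, 25 of 30 members rose, with a median log2 fold change of 1.70. Rps28, a small protein of the subunit's head, had 62.1, 43.2 and 90.0 scaled CPM without doxorubicin and 358, 271 and 365 with it. The groups were far apart, with a log2 fold change of 2.35 ± 0.29 (SE, edgeR adjusted p = 1.0e-05). Rps21 rose by 2.12 ± 0.44 on the same scale. Rps19, mutated in Diamond-Blackfan anaemia, had 166, 220 and 243 CPM without and 777, 775 and 837 with doxorubicin. Its log2 fold change was 1.93 ± 0.26 (edgeR adjusted p = 2.0e-05). Rps4x, encoded on the X chromosome, rose by 1.67 ± 0.24. Rps6, the target of S6 kinase, was not called: it had 1524, 955 and 572 CPM without and 3311, 895 and 1404 with doxorubicin, and the groups overlapped.

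Of the large subunit, 35 of 41 members rose, with a median log2 fold change of 1.59. Rpl37a had 274, 208 and 262 CPM without doxorubicin and 1466, 991 and 1187 with it. Every doxorubicin library lay far above the highest control, and the log2 fold change was 2.29 ± 0.21 (edgeR adjusted p = 3.3e-07). Rpl12, a protein at the stalk base, rose by 2.13 ± 0.48, and Rpl36 by 2.13 ± 0.34. Rpl13a, which is released from the ribosome in interferon-treated cells, rose by 1.92 ± 0.50.

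All 3 stalk members rose. The stalk recruits the elongation factors to the ribosome. Rplp0, its base, had 408, 873 and 1436 CPM without doxorubicin and 2044, 5008 and 5262 with it. Replicate 1 was lowest on both sides, and the groups did not overlap (log2 fold change 2.18 ± 0.51, edgeR adjusted p = 0.0036). Rplp1 had 211, 530 and 643 CPM without and 1170, 2746 and 2829 with doxorubicin (2.28 ± 0.45). Rplp2 had 58.9, 132 and 82.5 CPM without and 267, 259 and 329 with it (1.64 ± 0.29).

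**Figure D2:**
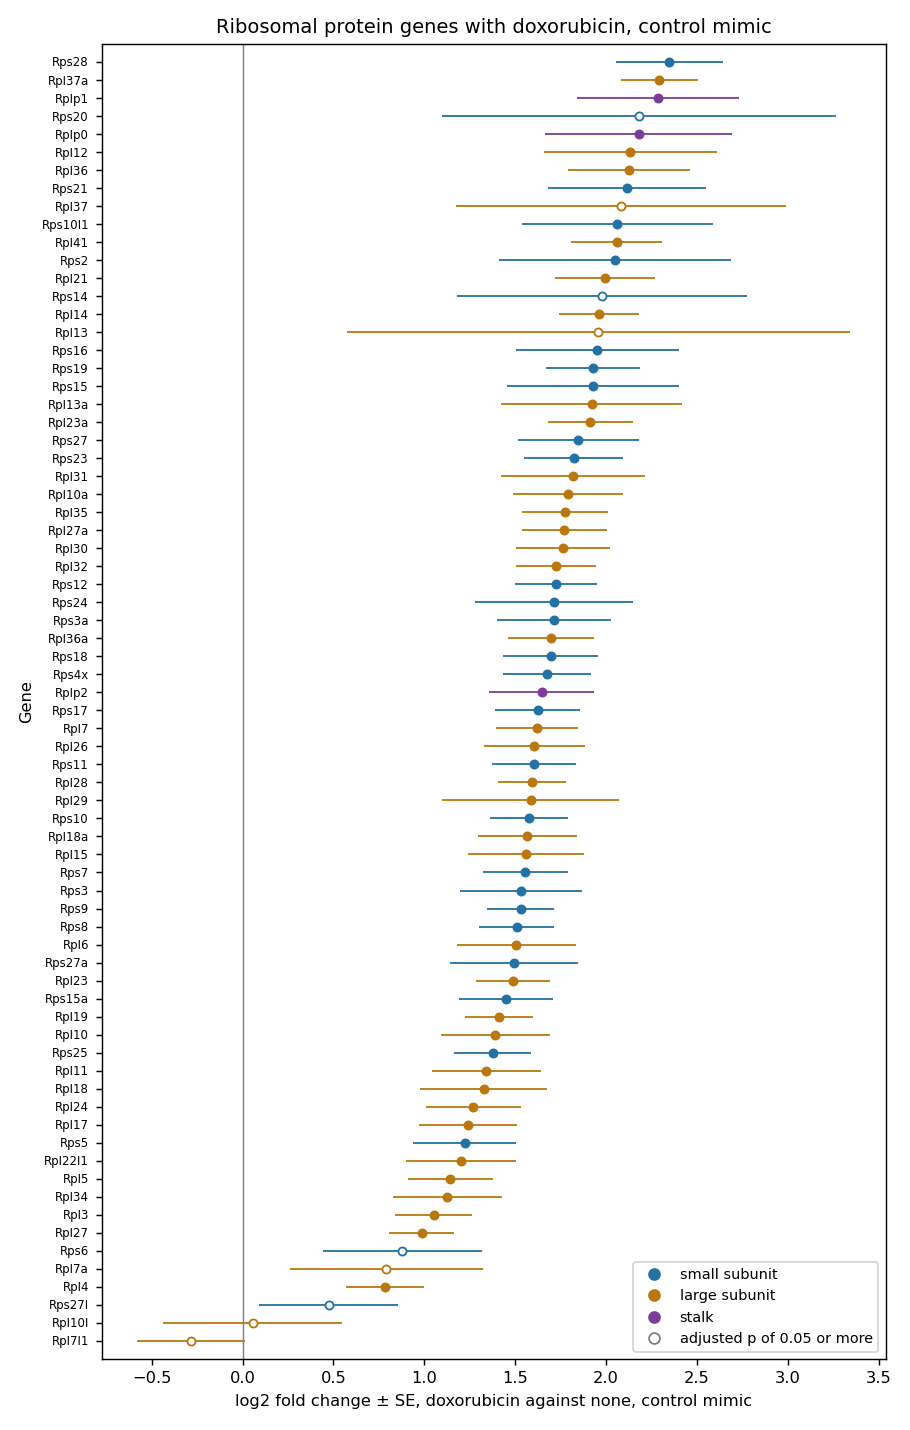
Log2 fold change with its SE (x axis) for doxorubicin against none with the control mimic, 1 row per gene, coloured by subunit; open circles were not called. The 2 members with an SE of 1.5 or more, Rpl9 and Rps19l2, are left out. Most values lie between 1 and 2.4, and Rpl7l1 is the only one below 0.

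Most minor forms of ribosomal proteins were not called, and since near-identical copies can share reads their values are uncertain. Rps27l, a p53 target in other cells, had 105, 54.0 and 51.8 CPM without and 139, 66.0 and 88.5 with doxorubicin, and the groups overlapped (0.47 ± 0.38). Its main copy Rps27 had 115, 236 and 224 CPM without and 514, 672 and 884 with it (1.85 ± 0.33). Rpl7l1, which takes part in early assembly of the large subunit, had 14.1, 20.1 and 31.3 CPM without and 16.8, 17.2 and 19.8 with doxorubicin. Its log2 fold change was -0.28 ± 0.30 and its groups overlapped, while Rpl7 rose by 1.62 ± 0.22. Without the 6 low-ratio libraries the log2 fold change of Rpl7l1 was -0.83. Only control mimic replicate 3, the highest for this gene, then remained without doxorubicin. The 6 were picked by a ratio that holds Rplp0, which Rpl7l1 followed within groups (r = 0.80), so this value shows no fall. Rpl10l, a copy known from the male germ line, had at most 15.7 CPM in any library and a log2 fold change of 0.06 ± 0.49, while Rpl10 rose by 1.39 ± 0.30. Rpl22l1 rose by 1.20 ± 0.30, from 76.5, 52.4 and 43.5 CPM to 205, 84.8 and 107, and Rps10l1 by 2.06 ± 0.53. Rpl3, whose muscle form Rpl3l fell under the minimum, rose by 1.05 ± 0.21. The differences between a minor form and its main copy were not tested.

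The 11 members that were not called included Rpl9 and Rps19l2, which were listed at 0 in some libraries. Rpl9 had 0, 0 and 54.1 CPM without and 0, 617 and 462 with doxorubicin. Rps19l2 had 0, 0 and 230 CPM without and 0, 623 and 700 with it. In both genes the libraries at 0 were among the 6 with the low ratio. Rpl13, Rpl37, Rpl7a, Rps14 and Rps20 were also not called, with log2 fold changes of 1.96, 2.08, 0.79, 1.98 and 2.18 in that order. Of these, Rps20, Rpl13 and Rpl37 were among the members with the lowest mean CPM, at 3.47, 6.34 and 10.4. The rest of the 11 were Rpl10l, Rpl7l1, Rps27l and Rps6.

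Among members known to bind MDM2, Rpl5 rose by 1.14 ± 0.24, Rpl11 by 1.34 ± 0.30, Rpl23 by 1.49 ± 0.21, Rpl26 by 1.60 ± 0.28, Rps7 by 1.56 ± 0.24 and Rps3 by 1.53 ± 0.34. Rps14 was not called; it had 48.2, 115 and 403 CPM without and 212, 815 and 1199 with doxorubicin. The 35 members with the tract had a median of 1.77 and 31 were called higher. The 23 without it had a median of 1.51 and 19 were called higher. These 23 include the minor forms Rpl7l1 (-0.28), Rps27l (0.47) and Rpl22l1 (1.20). The search also rests on the annotated start: the Rps15a window has a pyrimidine run before that start which it did not count. The difference between the medians was not tested.

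Members also rose with doxorubicin under each microRNA mimic, and the 4 doxorubicin comparisons share no library. With miR-222, 52 members rose and none fell, where 14.6% of all genes were called (7.76% higher, 6.87% lower); the median was 1.10 beside -0.00 over all genes. With miR-455, 41 rose and none fell, where 18.1% of all genes were called (9.02% higher, 9.11% lower); the median was 0.97 beside 0.00. With both mimics, 45 rose and none fell, where 15.1% of all genes were called (7.85% higher, 7.24% lower); the median was 0.92 beside -0.07. At an unadjusted p under 0.05, 63, 57 and 54 members were higher in these 3 comparisons and 0 were lower. The count of 45 called with both mimics was 0 when the 2 groups were fitted alone, and 25 without both mimics with doxorubicin replicate 3. The count with miR-222 was 34 without replicate 3 of its doxorubicin group, and that with miR-455 was 22 without replicate 2 of its group without doxorubicin. Without the 6 low-ratio libraries the miR-222 count was 68 and the miR-455 count 64. None of the 6 is in a miR-222 or miR-455 group, so these counts changed only through the shared fit. The 6 were also picked by the ratio of Rplp0 to Rps24, which are members. For both mimics no such count is given, since only replicate 1 remains in the doxorubicin group. The groups did not overlap, with doxorubicin above, in 70 members with miR-222 (24.4% of all genes), 68 with miR-455 (27.4%) and 47 with both (12.2%). They did so with doxorubicin below in 0, 1 and 0 members, beside 25% (miR-222), 26.4% (miR-455) and 12.4% (both) of all genes.

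In total 36 members were called higher in all 4 comparisons, beside 4.12% of all genes tested. Among them Rps12, which lies near the subunit's beak, had log2 fold changes of 1.72, 1.21, 1.16 and 1.41 with the control mimic, miR-222, miR-455 and both mimics. Rpl37a had 2.29, 1.32, 1.36 and 1.18 in the same order. A further 13 members were called higher in 3 comparisons (2.64% of all genes), 4 in 2 (3.10%), 10 in 1 (9.20%) and 11 in none (80.9%). Rpl7l1 and Rps27l were called in none; Rpl7l1 had -0.28, -0.23, -0.32 and -0.38, and Rps27l had 0.47, 0.10, 0.47 and 0.14. Rplp0 was called with the control mimic alone, with 1.26, 1.24 and 0.87 in the other 3 comparisons.

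**Figure D3:**
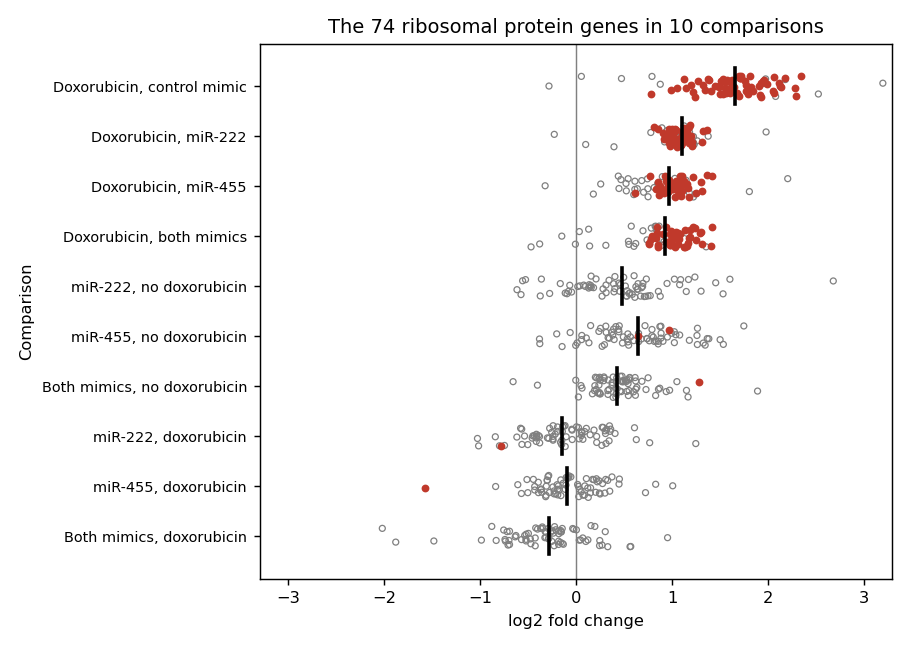
Log2 fold change (x axis) of the 74 members in the 4 doxorubicin and 6 mimic comparisons (y axis). Red points were called, open ones were not, and the black bar is the median; Rpl9 with the control mimic, at 4.32, is drawn at the edge of 3.2. Medians lie between 0.92 and 1.66 with doxorubicin, between 0.43 and 0.65 for mimics without it and just below 0 for mimics with it.

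Most members' fold changes with doxorubicin were smaller under each microRNA mimic than under the control mimic, but no member's difference passed the test. The doxorubicin effect with miR-222 minus that with the control mimic was negative in 68 of 74 members, with a median of -0.56 beside -0.07 over all genes. With miR-455 it was negative in 73, with a median of -0.65 beside -0.07, and with both mimics in 71, with a median of -0.60 beside -0.10. These 3 differences share the 6 control mimic libraries, 3 of which are among those with the low ratio. edgeR called 0 members in each, where it called 0.0489% (0.00699% higher, 0.0419% lower), 0% and 0.0559% (0.00699% higher, 0.0489% lower) of all genes. At an unadjusted p under 0.05 there were 12, 18 and 19 members, all lower, and DESeq2 called 1, 1 and 4. The smallest p for both mimics was that of Rps28, with a difference of -1.56 ± 0.40 (edgeR adjusted p = 0.10). The count for both mimics was 6 without both mimics replicate 3. Without the 6 low-ratio libraries the medians were -0.37, -0.45 and -0.48. That fit has 1 control mimic library without doxorubicin and 1 of both mimics with doxorubicin, so no counts are given.

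Without doxorubicin, the mimics gave positive medians, and edgeR called at most 2 members for any of them. The 3 comparisons share the control mimic libraries. For miR-222 the median was 0.48 and edgeR called 0 members, where 8.97% of all genes were called (4.5% higher, 4.47% lower). At an unadjusted p under 0.05 there were 18 members, all higher, and DESeq2 called 3. The groups did not overlap in 43 members with miR-222 above (21.4% of all genes) and 1 with it below (16.5%). For miR-455 the median was 0.65 and 2 members were called, both higher, where 4.72% of all genes were called (2.47% higher, 2.25% lower). At an unadjusted p under 0.05 there were 39 members, all higher, and DESeq2 called 17, with no share of all genes to set beside these counts. Those edgeR called were Rps9, with 238, 260 and 318 CPM in control and 463, 339 and 473 with miR-455 (0.64 ± 0.18, edgeR adjusted p = 0.047), and Rps19 (0.97 ± 0.25, adjusted p = 0.035). Neither group pair overlapped, which held for 19 members with miR-455 above (16.2% of all genes) and 0 below (12.9%). For both mimics the median was 0.43 and 1 member was called, where 7.06% of all genes were called (3.67% higher, 3.39% lower). Taking an unadjusted p under 0.05 gave 16 members, all higher, and DESeq2 called 3. Groups did not overlap in 15 members with both mimics above (10.9% of all genes) and 1 below (10.4%). The 1 called member was Rps27l, with 105, 54.0 and 51.8 CPM in control and 97.9, 116 and 301 with both mimics. The groups overlapped, and replicate 3 of both mimics was the highest of all 24 libraries (1.29 ± 0.39, edgeR adjusted p = 0.0496). Without that replicate the value was 0.58 (adjusted p = 0.23).

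These counts turned on single libraries. For miR-455 the count was 24 without miR-455 replicate 2, 10 without control mimic replicate 3, and 0 without control mimic replicate 1 or 2 or miR-455 replicate 1 or 3. For miR-222 it was 7 without control mimic replicate 3. For both mimics it was 8 without both mimics replicate 3, and 0 without control mimic replicate 2 or both mimics replicate 1 or 2. Without the 6 low-ratio libraries the medians were 0.24, 0.45 and 0.35 for miR-222, miR-455 and both. Only replicate 3 of the control mimic then remained, so no counts are given.

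With doxorubicin in both groups, 1 member at most was called for any mimic. For miR-222 the median was -0.14 and 1 member was called, where 3.95% of all genes were called (1.59% higher, 2.36% lower). Groups did not overlap in 3 members with miR-222 above (13.8% of all genes) and 9 below (12.5%). The called member was Rps12, with 2386, 1547 and 1395 CPM in control and 999, 1017 and 1069 with miR-222. All 3 miR-222 libraries were lower (-0.79 ± 0.22, edgeR adjusted p = 0.0497). The call ended without control mimic with doxorubicin replicate 1, which was the highest library (-0.51, adjusted p = 0.31), without its replicate 2, and without any 1 of the miR-222 libraries. For both mimics the median was -0.29 and edgeR called 0 members, where 5.55% of all genes were called (2.78% higher, 2.78% lower). Groups did not overlap in 1 member with both mimics above (8.69% of all genes) and 9 below (9.16%). At an unadjusted p under 0.05 there were 2 higher and 7 lower, and DESeq2 called 3, all lower.

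With miR-455 and doxorubicin, Rps15a was the 1 member called, where 2.5% of all genes were called (0.657% higher, 1.85% lower) and the members' median was -0.10. That median was 0.02 without control mimic with doxorubicin replicate 1, and 0.01 without the 6 low-ratio libraries. Groups did not overlap in 3 members with miR-455 above (14.9% of all genes) and 6 below (11.6%). Rps15a is a small subunit protein, and its annotated start window is printed above. It had 1288, 610 and 821 CPM in control mimic with doxorubicin and 304, 320 and 291 with miR-455 and doxorubicin. The groups were far apart (-1.57 ± 0.26, edgeR adjusted p = 0.0013). Leaving out any 1 of the 6 libraries kept the call, with values from -1.78 to -1.23; fitting the 2 groups alone ended it (adjusted p = 0.067). Without doxorubicin Rps15a had 401, 336 and 258 CPM in control and 295, 179 and 292 with miR-455, and these overlapped (-0.38, adjusted p = 0.35). Within miR-455 it had a log2 fold change with doxorubicin of 0.26, and was not called, while it rose by 1.45, 1.10 and 0.98 with the control mimic, miR-222 and both mimics. The difference from the control mimic was -1.19 ± 0.36 and did not pass (edgeR adjusted p = 0.30). With both mimics and doxorubicin Rps15a had 504, 724 and 733 CPM and was not called against control (-0.47, adjusted p = 0.32).

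**Figure D4:**
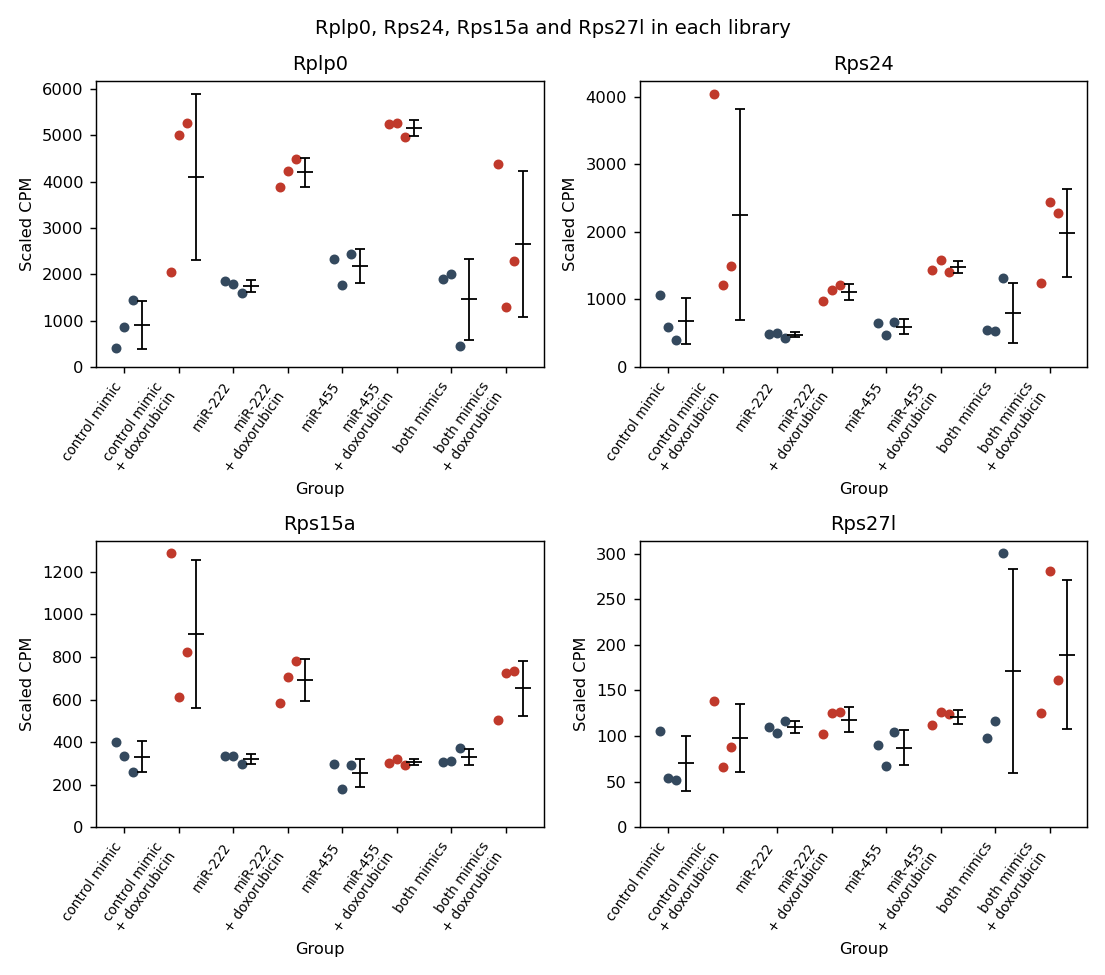
Scaled CPM (y axes) of Rplp0, Rps24, Rps15a and Rps27l in each library (points, red with doxorubicin) by group (x axis), with mean ± SD of 3. Rps15a with miR-455 and doxorubicin stays at 291 to 320, and Rplp0 and Rps24 deviate in opposite directions in control mimic with doxorubicin replicate 1.

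Within groups the members did not vary as 1 block. Over the 24 libraries, deviations from the group mean correlated with those of Rplp0 at r above 0.5 in 39 other members and below -0.5 in 16, with 18 between; Rplp0 was chosen as the reference after its values were seen. The libraries share groups and differ in depth, so these correlations are descriptions. Rps2 followed Rplp0 (r = 0.998), with 257, 694 and 1264 CPM in the control mimic libraries. Rps24, a protein of the small subunit that also carries the tract, went the other way (r = -0.87), with 1068, 587 and 408 CPM in the same libraries. Rps24 rose with doxorubicin to 4049, 1215 and 1499 CPM (1.71 ± 0.43, edgeR adjusted p = 0.0060), so both genes were called higher. Rpl31 behaved like Rps24 (r = -0.83), with 724, 381 and 319 CPM without doxorubicin and 2929, 932 and 1160 with it. Both Rpl31 and Rplp0 hold the tract in the windows printed above. The SD within groups, on the log2 scale, ran from 0.171 to 3.67 over the members, with a median of 0.349 beside 0.484 over all genes. These correlations were not computed without the 6 libraries, and the part of mitochondrial share or of gene number in the pattern was not tested.

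**Figure D5:**
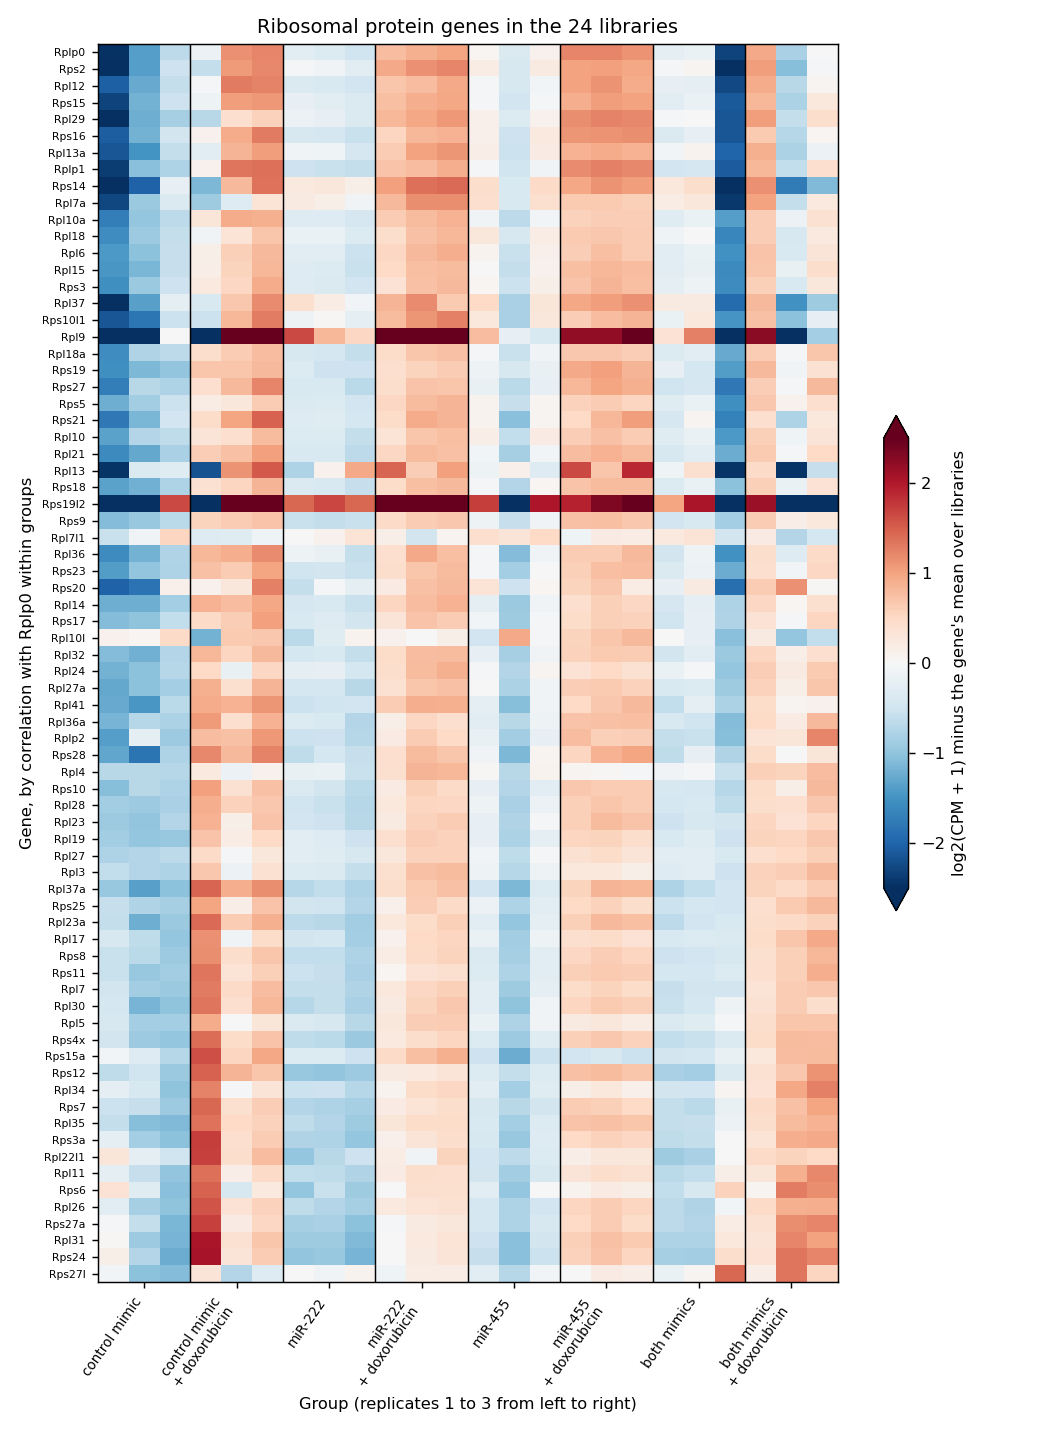
Log2(CPM + 1) minus the gene's mean over libraries (colour) for the 74 members (rows, ordered by within-group correlation with Rplp0) in 24 libraries (columns, 3 per group). The upper rows are blue in control mimic replicate 1 and both mimics replicate 3, where lower rows are near their mean or above it.

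Of 6 ribosomal proteins whose symbols lie outside the naming rule, 5 were called higher with doxorubicin and the control mimic, where 15.2% of all genes were, with a median of 1.68. The sixth, Rps4y2, had -0.29 ± 0.76. With miR-222 5 were called higher, with miR-455 3 and with both mimics 3. Fau, a fusion of a ubiquitin-like protein and a small subunit protein, rose by 1.51 ± 0.28, Rpsa by 1.85 ± 0.33 and Rpl36al by 1.95 ± 0.31.

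Few genes of the machinery that builds the ribosome were called. Of 39 assembly and nucleolar genes, 3 were called with the control mimic, all lower, where 12.3% of all genes were called lower; the list median was -0.36. Those 3 were Gnl3 (-0.64 ± 0.20), Fbl, which methylates ribosomal RNA (-0.93 ± 0.31), and Nmd3, which exports the large subunit (-1.14 ± 0.39). Of 13 genes of RNA polymerase I and its factors, 1 fell, the terminator Ttf1 (-0.92 ± 0.31), and the median was -0.20. In the other 3 doxorubicin comparisons, 14.6% (miR-222), 18.1% (miR-455) and 15.1% (both mimics) of all genes were called. Among the 39 assembly genes, 0 were called with miR-222, 1 was higher with miR-455, and 1 was higher and 1 lower with both. For the 13 polymerase I genes, 1 was called lower with miR-455 and 0 were called with miR-222 or both.

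With the control mimic, translation factors were called in both directions, as were all genes tested (27.5%, with 15.2% higher and 12.3% lower). Of 27 initiation genes 5 rose and 2 fell (median -0.22), which is near that share. Of 11 elongation genes 4 rose and 2 fell (median -0.00). Eef1a1, which brings aminoacyl-tRNA to the ribosome, rose by 1.11 ± 0.24, and Eef2, which moves it along the message, by 1.31 ± 0.39. Of 19 other genes with TOP messages, a list that shares factors with those lists, 9 were called, all higher, with a median of 0.13. Of 21 genes of TOP and mTORC1 regulation, 1 rose and 2 fell, with a median of -0.31. The genes called were Tsc2, an inhibitor of mTORC1 (0.58 ± 0.18), Rheb, its activator (-1.30 ± 0.28), and Myc, a driver of ribosome synthesis (-0.88 ± 0.26). Larp1 (-0.56 ± 0.22) and Mtor (-0.36 ± 0.29) were not called. Of 9 genes around MDM2 and p53, 2 rose: Mdm2 (1.87 ± 0.45) and the cell cycle inhibitor Cdkn1a (2.59 ± 0.61). Under miR-222, miR-455 and both mimics, 0 of these 9 were called with doxorubicin, where 14.6%, 18.1% and 15.1% of all genes were. There Mdm2 had 0.02, 0.22 and 0.64, and Cdkn1a had 0.41, 0.65 and -0.24. The differences from the effect with the control mimic called 0 of the 9 for each mimic. Without doxorubicin, against the control mimic, miR-222 had 2 of the 9 higher (8.97% of all genes called). In the same setting miR-455 had 0 called (4.72%), and both mimics had 2 higher and 1 lower (7.06%).

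Genes that are no member were ranked by the correlation of their log2 CPM over the 24 libraries with the members' mean. Among the 10 highest, Pearson's r was 0.991 for Atp5f1b, a subunit of ATP synthase, 0.989 for Uqcrfs1 of complex III, and 0.986 for Cox4i1 of complex IV. Among the least alike were Filip1 (-0.965) and Cenpe (-0.958). These values are descriptions over libraries that share groups and differ in depth. In the control mimic groups, 2 of 13 mitochondrially encoded transcripts rose with doxorubicin, near the 15.2% of all genes called higher, with a list median of 1.21. The 9 cardiomyocyte markers in the table summed to a median of 21062 CPM without and 48204 with doxorubicin. Among them Nppa (3.17), Myl2 (2.08) and Tnnt2 (1.34) rose and Pln (-2.35) fell, Myh6 had -0.09, and the list median was 0.22, so the sum is not the change of the list as a whole. The part of either in the members' rise was not tested.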

How the data were processed

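The deposited values are estimated counts per gene, made by the authors with Salmon on rat build Rnor_6.0, and DESeq2 was also used, per the submitters' processing notes; their versions: not given in the sources used here. Of the deposited values, 7.35% were not whole, and all were rounded. Libraries hold 17311955 to 25750311 counts. A means model of 8 groups over 24 libraries was fitted to genes kept by filterByExpr, with TMM scaling, in edgeR 4.0.16 (R 4.3.3, limma 3.58.1), and 13 contrasts were tested by the quasi-likelihood test with Benjamini-Hochberg adjustment over all 14303 genes. The SE is the log2 fold change over the square root of F. Printed CPM are TMM-scaled; shares are percents of counts. Members and gene lists were chosen with earlier results of these data known. Named members were the largest changes each way, minor forms with their main copies, MDM2 binders, stalk proteins and a few others; Rps2, Rps24, Rpl31, Rpl9, Rps19l2 and the members given as not called or by low-ratio libraries were chosen after their values were seen. Alternatives used other scalings, filters, a replicate block, subsets of libraries and DESeq2 1.42.0. Replicate numbers were not used to pair the samples in the reported fit, and whether samples were paired is not settled. Of 30 same-number correlations of deviations 8 were over 0.1. Tracts were searched with Python 3.11.15 and pandas 2.3.3. The fitting code was tested on simulated data. Protein identity and length were not analysed here. Some genes of the lists are not reported here.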

Additional observations from a re-analysis of the deposited data

How the results depend on the processing

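Counts of members called with doxorubicin stayed within 1.5 times the reported ones in most settings. Leaving out 1 library at a time gave 58 to 67 with the control mimic, 34 to 46 with miR-222, 22 to 32 with miR-455 and 25 to 48 with both; the lowest of the last 3 came without miR-222 with doxorubicin replicate 3, miR-455 replicate 2 and both mimics with doxorubicin replicate 3. Fitting only the groups compared took the count with both from 45 to 0. Leaving out the 6 low-ratio libraries, chosen after seeing the data, took the count with miR-455 from 41 to 64. None of the 6 is in a miR-455 group, so that count moved only through the shared fit. Of the medians over the members, that for miR-455 against the control mimic with doxorubicin changed sign, from -0.10 to 0.0031 without the 4 libraries with fewest genes, 0.0058 without the 6, and 0.022 without control mimic with doxorubicin replicate 1.

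For miR-222, miR-455 and both mimics without doxorubicin (0, 2 and 1 as reported), single-library omissions gave 0 to 7, 0 to 24 and 0 to 8. Both other scalings and the 1 CPM filter gave 1 for miR-455 and 0 for both mimics, and no filter or only the groups compared gave 0 for each. Leaving out the 4 libraries that had the fewest genes gave 4, 12 and 10, and DESeq2 gave 3, 17 and 3. With doxorubicin (1, 1 and 0 as reported), single omissions gave 0 to 1, 1 to 1 and 0 to 0. The miR-222 count was 0 with the scaling without ribosomal and mitochondrial genes, with either other filter and with only the groups compared, which also gave 0 for miR-455. Without the 4 libraries the counts were 2, 2 and 2, and DESeq2 called 3 for both mimics. Without the 6 the counts were 5 for miR-222 and 2 for miR-455. For the 3 differences (0 each), omissions gave 0 to 0, 0 to 1 and 0 to 6, DESeq2 gave 1, 1 and 4, and leaving out the 4 libraries gave 10 for both mimics. The cause was not tested.

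With the replicate block, the doxorubicin counts were 63, 46, 38 and 40, and the counts of miR-455 and both mimics without doxorubicin and of miR-222 with it were 0. The correlations of same-number deviations ran from -0.653 to 0.532, and whether samples of the same number were paired is not settled here. The block changed no other count by over 1.5 times.

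Without mitochondrial transcripts in the total, the mean share was 3.64% in control mimic, 7.59% with doxorubicin, 4.91% in miR-222, 7.78% with doxorubicin, 7.65% in miR-455 with doxorubicin and 7.30% in both with doxorubicin.

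Of 3372 single-gene values, 2969 kept direction and side of the threshold, 378 lost their call, 1 gained one and 24 changed sign; none of the 24 was called as reported. Rpl10l with both mimics (doxorubicin, -0.01 as reported) was 0.027 with DESeq2 size factors, 0.0038 with the scaling without ribosomal and mitochondrial genes, 0.022 with the 1 CPM filter, 0.017 with the replicate block, 0.34 without the 6 libraries, 0.00028 with only the groups compared and 0.028 by DESeq2. It was 0.26 and 0.092 without both mimics replicate 1 or 2, and 0.26 and 0.12 without both mimics with doxorubicin replicate 2 or 3. Rpl10l with the control mimic was -0.071 and -0.092 without control mimic replicate 1 or 2, and -0.22 and -0.22 without control mimic with doxorubicin replicate 2 or 3. Its range over omissions was -0.22 to 0.48 with the control mimic and -0.52 to 0.26 with both. Rpl7l1 with the control mimic ran from -0.59 to 0.012, the last without control mimic replicate 3. Rps27l with both mimics was -0.12, -0.059 and -0.26 without both mimics replicate 1 or 2 or both mimics with doxorubicin replicate 2, and at most 0.84. Rps15a for both mimics without doxorubicin was 0.012 without the 4 libraries, 0.22 without the 6, 0.12 without control mimic replicate 1, and 0.016 and 0.0088 without both mimics replicate 1 or 2, and at lowest -0.18.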
